A study of Mus musculus with 12 samples.

Results

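Lungs of mice aged 20 months were set against lungs of mice aged 12 months, the middle step of an age series that also holds lungs of 6 and 30 months. The comparison was chosen by the labels alone, as the 3 libraries labelled 20 months (20M_213, 20M_221 and 20M_222) against the 3 labelled 12 months (12M_206, 12M_207 and 12M_208), which are 6 of the 12 libraries. All mice were of the substrain C57BL/6NCr, and the labels name no treatment, sex or genotype other than that. The tissue was whole lung, and the measurement was sequencing of poly-A RNA, read as counts per gene. Whether the 3 libraries of an age come from separate animals is not stated in the labels, and the p-values measure only the spread between libraries, which may be technical.

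The lung is a mixture of cells. Gas passes through flat alveolar type 1 cells, which the surfactant-making type 2 cells replenish, into a dense capillary bed. The airways are lined with secretory club cells and with ciliated cells, whose motile cilia, built on an axoneme and driven by dynein motors, carry mucus upwards. With age the lung is known to gain lymphocytes, plasma cells and activated macrophages and to lose elastic recoil. In RNA from whole lung, fewer cells of a type and less RNA per cell cannot be told apart.

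Every library carried the RNA of lung. Sftpc, the surfactant protein of type 2 cells, stood at 19003, 22495 and 23834 CPM in the 12M libraries and 21837, 11708 and 12575 in the 20M libraries. Scgb1a1, the secretory protein of club cells, was the most abundant transcript of every library, with 40335 to 59217 CPM (counts per 1e+06 library counts, TMM-scaled) at 12M and 29138 to 45695 at 20M. Transcripts of the Y chromosome were present in all 6 libraries, with Ddx3y at 66.1 to 111 CPM at 12M and 80.04 to 109 at 20M. Xist, the RNA of the inactive X chromosome, was at 1.27 to 2.25 CPM at 12M and 1.03 to 2.15 at 20M. The 6 libraries held 12331639 to 15058628 counts and correlated with one another across genes at r = 0.950 to 0.983.

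Among the 6, some libraries stood apart. Relative to the mean of the 6M libraries, levels were related to transcript GC content in 20M_222 (Spearman rho across genes 0.465), in 20M_221 (0.358) and in 12M_208 (0.229), against -0.0869, -0.0271 and -0.00453 in 12M_206, 12M_207 and 20M_213. The trend was thus in 2 of the 20M libraries and 1 of the 12M libraries. Its part in each difference between the ages was not tested. For gene lists, medians without it come from 3 settings. The trend of each library was removed, or a term was fitted for the libraries of the series that have it. Library 30M_220 (rho 0.328) is among the latter. The last setting kept only the libraries, of any age, that lack the trend, which leaves 20M_213 as the only library of 20M. These medians are given where they differ from the median of all libraries in sign or by over 1.5 times, as are medians without 1 library. Over all tested genes, the median log2 fold change was -0.057 with the trend removed, against 0.02 in the test as reported. It was 0.013 with the term and 0.000149 in the libraries that lack the trend. In 20M_213 levels over the 6M mean were related to transcript length (rho -0.201). That rho was 0.0267 in 20M_221, 0.0527 in 20M_222 and -0.0845 to -0.0583 at 12M. Its part in the differences was not tested. The fold change of 20M against 12M itself followed GC content with rho = 0.287. With the genes split into 5 equal classes by GC content, its median was -0.12 on the log2 scale in the lowest class and 0.18 in the highest. Library 20M_222 also held transcripts that were near 0 in the other 12M and 20M libraries. Its level of Acta1, the actin of skeletal muscle, was 1039 CPM and that of Krt13, a keratin of squamous epithelium, was 2509 CPM, where no other 12M or 20M library passed 0.926 and 0.751 CPM.

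**Figure D1:**
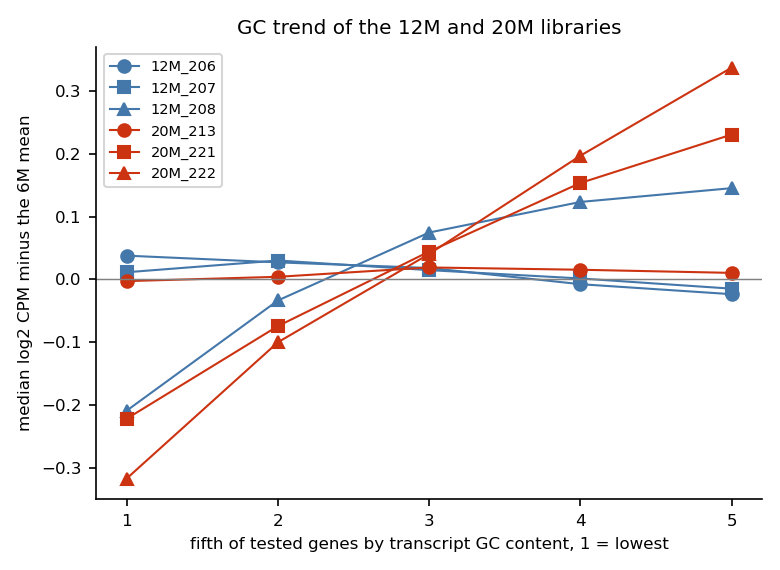
Median over genes of log2 CPM minus the 6M mean (y axis) in 5 equal classes of the tested genes by transcript GC content (x axis, 1 = lowest), 1 line per library, 12M in blue and 20M in red. Libraries 20M_221, 20M_222 and 12M_208 run upwards from left to right, from -0.32 to 0.34 in 20M_222, and the other 3 stay near 0.

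No gene passed the test between 12 and 20 months. Of 18407 genes tested with edgeR's quasi-likelihood test over all 12 libraries, 0 (0%) had a Benjamini-Hochberg adjusted p under 0.05, and the lowest adjusted p was 0.429. At an unadjusted p under 0.05 there were 1234 genes higher at 20M (6.7%) and 828 lower (4.5%), 2062 in all, where evenly spread p-values would give 920. The libraries of the 2 ages did not overlap for 1398 genes higher at 20M (7.59%) and 1365 lower (7.42%). The median log2 fold change was 0.0228, with 52.5% of genes above 0 and 47.5% below. DESeq2 called 9 of 18360 genes (0.049%), 7 higher and 2 lower, and limma voom called 0, with 5078 genes at an unadjusted p under 0.05. The 7 were Podnl1, Lrriq1, Tspoap1, Ccdc33, Cfap46, Cfap65 and Cfap74 and the 2 were Hba-a1 and Arrdc3, with DESeq2 adjusted p-values of 0.0108 to 0.0421. None of the 9 was called by DESeq2 when 12M_207, 12M_208 or 20M_222 was left out. In the same edgeR fit the step from 6M to 12M had 0 called genes, with 662 at an unadjusted p under 0.05. The step from 20M to 30M had 39 called genes, and 30M against 6M had 361. These comparisons share libraries with 20M against 12M or with each other.

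Single genes were taken by their small p in this comparison, 10 in each direction, so their separation between the ages is a description of how they were chosen. All 20 had an adjusted p of 0.429 with edgeR, and for all 20 the libraries of the 2 ages did not overlap.

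At the higher end stood genes of the motile cilium. Cfap46, Cfap65 and Cfap74 encode proteins of cilia and flagella, and Dnah10 encodes a heavy chain of the inner dynein arm, the motor that bends the axoneme. Of the 10 genes with the smallest p in this direction, 4 carry such a name, and Lrriq1, which encodes a protein with leucine-rich repeats and IQ motifs, stood with them. Many genes of motile cilia are known targets of RFX transcription factors, whose binding site, the X-box, contains the half-site GTTGCC. The promoters of these genes are shown because 4 of the 6 highest genes that have a RefSeq promoter hold that half-site on 1 of the strands. They are the 250 bases before the start of the gene (RefSeq, GRCm38.p6), 5′ to 3′ on the strand of the gene, with the half-site GTTGCC or its reverse complement GGCAAC in capitals. The positions are chr10:103236323-103236572 (minus strand) for Lrriq1, chr7:139683816-139684065 (minus strand) for Cfap46, chr4:155408940-155409189 (plus strand) for Cfap74 and chr5:124724835-124725084 (plus strand) for Dnah10.
Lrriq1: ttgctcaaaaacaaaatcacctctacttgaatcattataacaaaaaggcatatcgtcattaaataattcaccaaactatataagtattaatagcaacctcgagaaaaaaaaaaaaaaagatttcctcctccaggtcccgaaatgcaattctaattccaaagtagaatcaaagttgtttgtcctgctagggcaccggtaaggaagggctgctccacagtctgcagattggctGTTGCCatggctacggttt
Cfap46: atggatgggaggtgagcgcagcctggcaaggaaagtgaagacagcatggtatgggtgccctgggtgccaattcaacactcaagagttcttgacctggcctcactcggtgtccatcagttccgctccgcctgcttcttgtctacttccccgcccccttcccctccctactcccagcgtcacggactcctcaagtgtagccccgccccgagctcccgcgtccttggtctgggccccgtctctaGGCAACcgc
Cfap74: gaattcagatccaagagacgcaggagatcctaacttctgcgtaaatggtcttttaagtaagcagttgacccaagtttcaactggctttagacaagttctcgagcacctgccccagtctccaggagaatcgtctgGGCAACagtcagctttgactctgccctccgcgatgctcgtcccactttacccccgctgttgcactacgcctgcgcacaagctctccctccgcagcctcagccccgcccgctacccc
Dnah10: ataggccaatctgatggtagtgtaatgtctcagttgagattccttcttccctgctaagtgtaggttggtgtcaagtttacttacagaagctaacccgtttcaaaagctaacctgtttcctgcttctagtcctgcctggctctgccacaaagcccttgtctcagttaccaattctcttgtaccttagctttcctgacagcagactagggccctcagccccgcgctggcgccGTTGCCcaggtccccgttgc
In Lrriq1, Cfap46 and Dnah10 the half-site lies near the start of the gene, and in Cfap74 it lies near the middle of the window. The promoter of Ttc16 lacks these letters. That of Ccdc33 lacks them too, but it was taken at a RefSeq start inside the gene (chr9:58102298-58102547). The 250 bases before the Ccdc33 gene were not searched. The half-site occurs in 5 of the 11 promoters of the motile cilium list and in 1379 of 12644 promoters of tested genes (10.9%). A match of 6 letters is a description of the sequence and does not show binding.

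Cfap65 (GRCm38, chr1:74902071-74935599) stood at 72.1, 64.5 and 38.9 CPM in the 12M libraries and 95.96, 216.1 and 143 in the 20M libraries. The 20M libraries all lay above the 12M libraries, with 20M_221 highest and 12M_208 lowest, and the log2 fold change was 1.37 ± 0.29 (SE), with a 95% interval of 0.73 to 2.01. At 6M the same gene was at 84.1 to 96.8 CPM and at 30M at 60.4 to 101, so that the 12M libraries lay below those of 6M and the 20M libraries did not all lie above them. Cfap46 (chr7:139600951-139683817) was at 19.9, 18.3 and 15.4 CPM at 12M and 26.2, 59.3 and 38.03 at 20M. Its 6M level of 25.4 to 33.6 CPM lay between those of the 2 ages compared, apart from an overlap with 20M_213, which was the lowest of the 20M libraries. Cfap74 (chr4:155409190-155466823) was at 16.7, 17.9 and 11.6 CPM at 12M and 24.7, 57.6 and 38.9 at 20M, a log2 fold change of 1.39 ± 0.30. Dnah10 (chr5:124725085-124834308) was at 47.6, 38.5 and 34.2 CPM at 12M and 50.4, 106 and 83.7 at 20M, and the gap between its nearest libraries, 12M_206 and 20M_213, was small against the spread at either age.

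Lrriq1 (chr10:103046031-103236322) was a transcript of low level, at 1.65, 1.01 and 1.94 CPM at 12M and 4.46, 9.13 and 6.65 at 20M. Its 3 libraries of 20M were all above those of 12M, and the log2 fold change was 2.13 ± 0.44. Ccdc33 (chr9:58028677-58118823), a coiled-coil gene, was at 22.5, 15.6 and 19.3 CPM at 12M and 27.9, 46.8 and 37.1 at 20M. For Ccdc33 the 20M libraries lay above all other 9 libraries of the series, as they did for 122 of the 18407 tested genes. Ttc16, a tetratricopeptide repeat gene, had 20.8 ± 3.68 at 12M and 39.1 ± 10.2 at 20M (CPM, SD, n = 3).

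Podnl1, Cyp2g1 and Tspoap1 complete the 10. Podnl1 (chr8:84125989-84132527), a small leucine-rich proteoglycan of the podocan type, was at 2.48, 1.09 and 1.69 CPM at 12M and 4.46, 6.25 and 6.65 at 20M, with a log2 fold change of 1.71 ± 0.32. Its 30M libraries were at 5.24 to 8.15 CPM and its 6M libraries at 1.62 to 1.73, so that its levels at 20M overlapped those at 30M and its levels at 12M overlapped those at 6M. Cyp2g1 (chr7:26808892-26821205), a cytochrome P450 known from olfactory mucosa, was at 0.1502, 0.0842 and 0.253 CPM at 12M and 0.846, 1.69 and 1.18 at 20M. These are few reads, since 3 counts are 0.188 to 0.253 CPM in the 6 libraries, and the 12M libraries were the lowest of the series. Tspoap1 (chr11:87760541-87785928), which encodes a binding partner of the mitochondrial translocator protein TSPO, was at 11.3, 11.8 and 6.76 CPM at 12M and 17.7, 31.3 and 20.9 at 20M.

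In the libraries with no GC trend, which leave 12M_206 and 12M_207 against 20M_213, the log2 fold changes of the 10 genes kept their sign and ran from 0.23 to 2.74. That of Cfap65 was then 0.50 in place of 1.37, that of Cfap46 was 0.46 in place of 1.21, and that of Dnah10 was 0.23 in place of 0.996. With each library's GC trend removed, the 10 ran from 0.74 to 2.82.

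A list of motile cilium genes that mark the ciliated cell held members on both sides of 0. Of its 14 tested members, 6 lay above 0 and 8 below, with a median log2 fold change of -0.06, beside 0.02 over all tested genes. That median was 0.078 without 20M_222, -0.14 without 20M_213 and -0.024 without 12M_208, and the settings without the GC trend gave -0.12 (removed), -0.0099 (term) and 0.078 (libraries that lack it). Foxj1, the master transcription factor of motile cilia, was at 120.3, 169 and 208.6 CPM at 12M and 136, 219.8 and 189 at 20M, and the ages overlapped. Cfap43, a protein of the axoneme, was at 51.3, 44.6 and 30.8 CPM at 12M and 59.6, 95.3 and 63.2 at 20M, and all 20M libraries were above those of 12M. Hydin, a very large protein of the central pair of microtubules, was at 15.998, 19.4 and 31.4 CPM at 12M and 20.6, 56.9 and 45.1 at 20M. Cfap126, which takes part in the placing of basal bodies, was lower in its median at 20M, at 51.7, 47.8 and 52.96 CPM at 12M and 49.9, 45.9 and 28.1 at 20M. The 7 members with the longer transcripts (1396 to 15783 bases) had a median of 0.13, with 5 above 0. The 7 with the shorter transcripts (716 to 1240 bases) had a median of -0.14, with 1 above 0. This split was made after the values were seen, and over all tested genes the fold change followed transcript length with rho = 0.0459. By library, levels over the 6M mean followed length with rho = -0.201 in 20M_213, 0.0267 in 20M_221 and 0.0527 in 20M_222. Gene Ontology terms of the deposited table, of 15 to 200 tested genes, were ordered by the share of their genes that did not overlap in each direction, also after the values were seen. Sperm axoneme assembly came first of 1168 terms in the higher direction, with 10 of 21 genes without overlap (47.6%, beside 7.59% of all tested genes) and a median of 0.38. For cilium movement it was 15 of 42 genes (35.7%), with a median of 0.34 and 36 genes above 0. In the lower direction, cellular response to nerve growth factor stimulus and positive regulation of ATP-dependent activity came first, each with 6 of 16 genes (37.5%, beside 7.42%) and medians of -0.14 and -0.21.

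**Figure D2:**
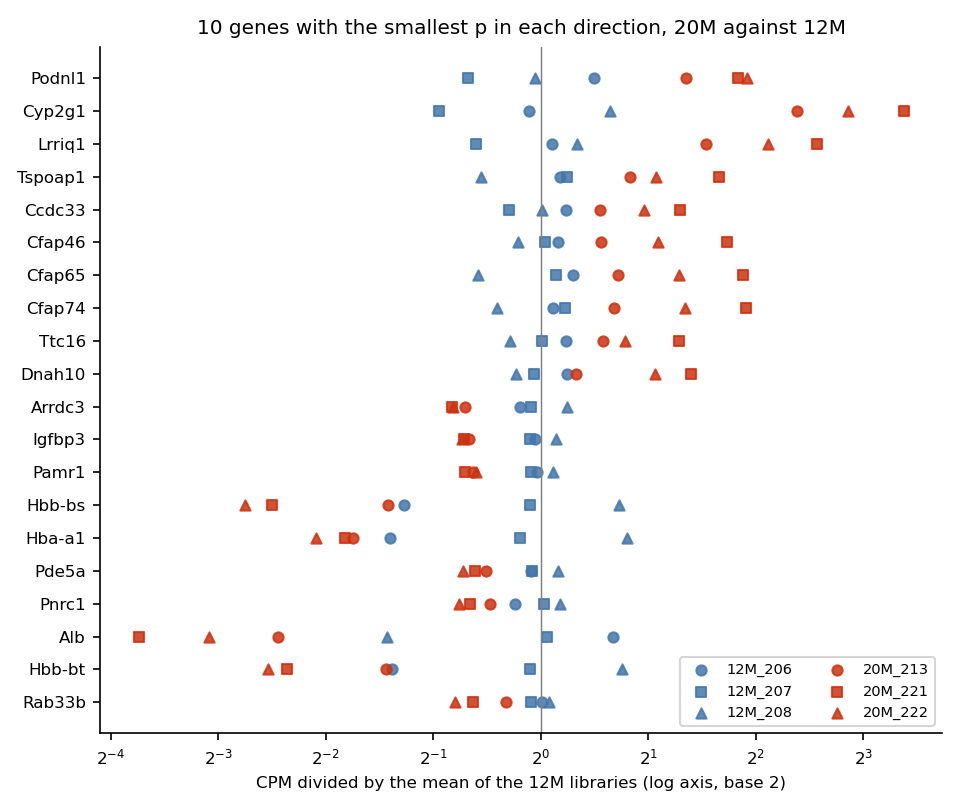
CPM of each 12M (blue) and 20M (red) library divided by the mean of the 12M libraries (x axis, log scale, base 2) for the 10 genes with the smallest p in each direction, 1 row per gene and 1 symbol per library. The red points lie to the right of the blue points in the upper 10 genes and to the left in the lower 10, and the blue points of the haemoglobin genes and Alb are spread more than those of the other lower genes.

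At the lower end stood haemoglobin genes, whose mRNA is that of red cell precursors and reticulocytes. Hbb-bs (chr7:103826534-103828096), an adult beta-globin chain, was at 352, 789 and 1404 CPM at 12M and 317, 150.3 and 126 at 20M. The 12M libraries differed among themselves more than the nearest libraries of the 2 ages, 12M_206 and 20M_213, did. The means were 848 ± 529 at 12M and 198 ± 104 at 20M (CPM, SD, n = 3), and the log2 fold change was -2.10 ± 0.49. Hba-a1 (chr11:32283511-32284465), an alpha-globin chain, was at 132, 306 and 610.1 CPM at 12M and 104, 98.7 and 81.8 at 20M, and Hbb-bt (chr7:103812524-103813996) at 34.02, 83.04 and 149 CPM at 12M and 32.7, 17.3 and 15.3 at 20M. For these 3 genes the 20M libraries were the lowest of all 12, as for 63 of all tested genes. Hbb-bs at 6M and 30M was at 319 to 709.6 and 599 to 815 CPM. Globin genes have near-identical copies, so the split of counts between Hba-a1 and Hba-a2, and between Hbb-bs and Hbb-bt, is uncertain. Of 11 tested erythroid genes, 10 lay below 0 and 6 did not overlap, all lower (54.5%, beside 7.42% of all tested genes), with a median of -1.49. Alas2, the first enzyme of haem synthesis in red cell precursors, was at 10.8, 19.9 and 50.3 CPM at 12M and 9.85, 10.1 and 8.79 at 20M. In the libraries with no GC trend the median of the list was -0.63.

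Arrdc3 (chr13:80883384-80896042), an arrestin-domain protein that takes part in the trafficking of beta-adrenergic receptors, was at 217.96, 235 and 296 CPM at 12M and 153, 141 and 142 at 20M. The 20M libraries lay close together, and the log2 fold change was -0.78 ± 0.15, with a 95% interval of -1.11 to -0.45. Its 6M libraries were at 137 to 172 CPM and its 30M libraries at 111 to 140.1, so that the 12M libraries were above all others. The same held for Igfbp3, Pamr1 and Rab33b, and for 118 of the 18407 tested genes. Igfbp3 (chr11:7206086-7213923), which binds insulin-like growth factors in the circulation and in tissue, was at 113, 109.996 and 129.6 CPM at 12M and 73.8, 71.5 and 70.7 at 20M. Its 20M libraries lay close together. Pamr1 (chr2:102550012-102643041), a secreted protein with a peptidase domain, was at 31.5, 30.5 and 35.1 CPM at 12M and 20.9, 19.8 and 21.3 at 20M. Rab33b, a small GTPase of the Golgi and of autophagosome formation, was at 47.4, 44.05 and 49.7 CPM at 12M and 37.5, 30.4 and 27.02 at 20M.

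Pde5a (chr3:122728947-122859374), the phosphodiesterase that breaks down cyclic GMP in vascular smooth muscle, was at 185, 185 and 219.9 CPM at 12M and 138, 129 and 119 at 20M. Pnrc1, a coactivator of nuclear receptors, was at 112, 135 and 149 CPM at 12M and 95.2, 83.6 and 77.7 at 20M. For both, the 12M libraries lay above those of 20M by a smaller factor than for the globins, with log2 fold changes of -0.61 ± 0.15 and -0.62 ± 0.16. Alb, the serum albumin made by liver, was at 3.98, 2.61 and 0.929 CPM at 12M and 0.462, 0.188 and 0.295 at 20M, levels that at 20M come down to a few reads. In the libraries with no GC trend the 10 lower genes kept their sign, from -2.81 to -0.28.

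Genes of the alveolar and airway epithelium lay mostly below 0, and none passed the test. Of 12 genes of alveolar type 1 cells, 11 lay below 0, 8 did not overlap (66.7%, beside 7.42% of all tested genes) and 5 had an unadjusted p under 0.05, with a median of -0.39. Cldn18, a tight-junction claudin, was at 916, 873 and 911 CPM at 12M and 784, 528 and 517 at 20M. Clic5, a chloride intracellular channel protein, was at 1137, 1055 and 1335 CPM at 12M and 965, 765 and 811 at 20M, and Emp2, an epithelial membrane protein, at 1312, 1315 and 1609.7 CPM at 12M and 1130.2, 1018 and 967 at 20M. In all 3 the libraries 20M_221 and 20M_222 were lowest and 20M_213 was nearer to those of 12M. Ager, the receptor for advanced glycation end products that marks type 1 cells, was at 2556, 2717 and 3125 CPM at 12M and 2448, 1909 and 1988 at 20M. Its log2 fold change was -0.40 ± 0.19. The median of the list was -0.11 in the libraries with no GC trend, -0.49 with the trend removed and -0.34 with a term for it.

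Type 2 cells had 13 of 14 genes below 0, with a median of -0.34. For 2 genes the ages did not overlap, both lower (14.3%, beside 7.42% of all tested genes). Lamp3, a membrane protein of lamellar bodies, was at 628, 734 and 571 CPM at 12M and 623, 362 and 367 at 20M, and Napsa, the protease that processes surfactant protein, at 264, 293 and 413 CPM at 12M and 300.3, 133 and 259 at 20M. Here 20M_213 was within the range of 12M, and the low values were those of 20M_221 and 20M_222. Lyz1, a lysozyme of type 2 cells, had 393 ± 18.2 at 12M and 298 ± 45.4 at 20M (CPM, SD, n = 3), and its log2 fold change was -0.40 ± 0.25. Airway secretory genes had a median of -0.49, with 10 of 12 below 0. Scgb3a1, a secretoglobin, was at 249.5, 280.04 and 339 CPM at 12M and 224, 86.3 and 137 at 20M, and Scgb3a2 at 1595, 1619 and 2021 CPM at 12M and 1525, 1014 and 837 at 20M. These were the 2 members of the 12 without overlap (16.7%, beside 7.42% of all tested genes). With the libraries that have no GC trend alone, the medians of the type 2 and secretory lists were 0.031 and 0.18. Both kept their sign with the trend removed, at -0.36 and -0.53, and with a term for it, at -0.26 and -0.45. The secretory median was -0.23 without 12M_208 and -0.31 without 20M_221.

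Mesothelial genes, which mark the pleura, lay below 0 for all 7 tested, with a median of -0.81, and 5 did not overlap (71.4%, beside 7.42% of all tested genes). The median was -0.53 without 20M_221, -0.44 with a term for the GC trend and -0.30 in the libraries that lack it. Msln, or mesothelin, was at 198, 173 and 189 CPM at 12M and 150.1, 55.6 and 81.4 at 20M, and Upk3b, a uroplakin of mesothelium, at 182, 162 and 175 CPM at 12M and 126, 54.3 and 99.2 at 20M. The 20M libraries were spread over more than the 12M libraries, with 20M_221 lowest for both. Krt19, a keratin of simple epithelia that is shared with the airways, was at 233, 271 and 282 CPM at 12M and 232, 184 and 196 at 20M. At 30M the range of Msln was 80.4 to 549 CPM.

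Smooth muscle and pericyte genes went the other way, with 14 of 15 above 0 and a median of 0.42, though none was higher without overlap. Myh11, the smooth muscle myosin, was at 43.8, 48.8 and 82.01 CPM at 12M and 50.4, 176 and 193 at 20M, where the high values were those of 20M_221 and 20M_222. Cox4i2, a lung subunit of cytochrome c oxidase found in pericytes, was the 1 gene that was lower, at 46.1, 45.4 and 76.6 CPM at 12M and 39.5, 41.01 and 38.1 at 20M. Without 20M_222 the median of the list was 0.07, without 12M_206 0.23 and without 12M_208 0.64. With the GC trend removed it was 0.15, with a term for it 0.058, and in the libraries that lack it -0.000648. Collagen and elastic fibre genes were divided, with 16 of 24 above 0 and a median of 0.17. Without 20M_222 that median was -0.10, and without each other library it ran from 0.05 (12M_206) to 0.37 (20M_213), with 0.065 without 12M_207 and 0.31 without 12M_208. It lay below 0 in all 3 settings without the GC trend, at -0.063 (removed), -0.079 (term) and -0.22 (libraries that lack it). With the trend removed it was near the median of all tested genes, which was then -0.057. Of the 24 genes, 1 was higher without overlap (4.17%, beside 7.59% of all tested genes) and 1 lower (4.17%, beside 7.42%). Eln, or elastin, was at 213.003, 127 and 151 CPM at 12M and 239, 223 and 308 at 20M, and all 20M libraries were above those of 12M. Postn, the matrix protein periostin, was at 260.4, 263 and 306 CPM at 12M and 223, 167 and 191 at 20M and lay lower, and Fbln5, a fibulin needed to assemble elastic fibres, was at 206.3, 169.7 and 226 CPM at 12M and 173, 117 and 121 at 20M.

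Skeletal muscle and squamous genes stood high in 1 library. Skeletal muscle had all 12 tested genes above 0, with a median of 4.27, and the median was 0.12 without 20M_222 and 0.17 in the libraries with no GC trend. Summed over the list of 18, the 12M libraries held 104 to 124 CPM and the 20M libraries 109 to 4392 CPM. Tnnt3, a fast muscle troponin, was at 1.803, 1.35 and 1.94 CPM at 12M and 2.39, 2.88 and 383 at 20M. Krt5, the keratin of basal cells, was at 0.901, 1.52 and 1.35 CPM at 12M and 0.846, 0 and 186 at 20M, and Krt4, a keratin of squamous epithelium, at 0.1502, 0.505 and 0.0845 CPM at 12M and 0, 0 and 2308 at 20M. The 4 tested squamous genes had a median of 3.72 with 20M_222 and -1.23 without it, -0.43 in the libraries with no GC trend and -1.11 with limma voom. The summed level of the 8 squamous genes was 7.96 to 11.8 CPM at 12M and 1.31 to 5200 CPM at 20M.

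**Figure D3:**
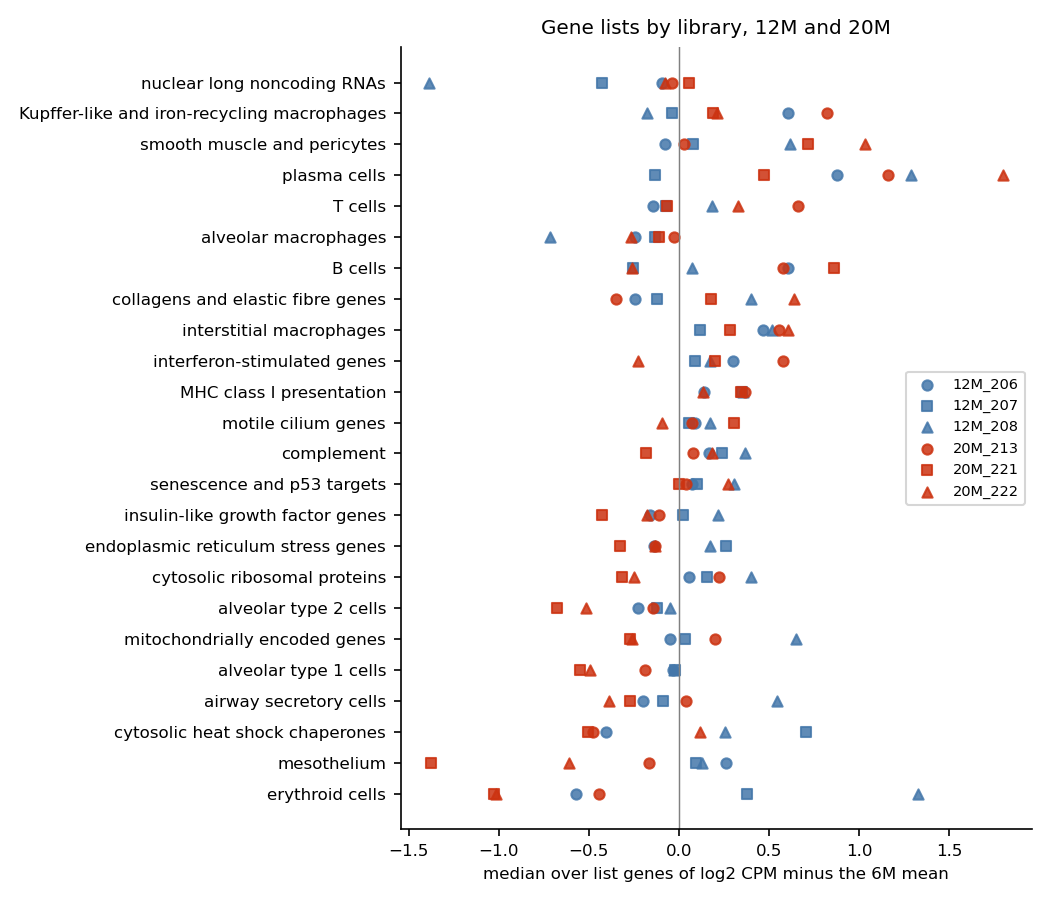
Median over the tested genes of each list shown of log2 CPM minus the 6M mean (x axis), 1 row per list and 1 symbol per library, with 12M in blue and 20M in red. The skeletal muscle and squamous lists are not drawn. Rows run from lists lower at 20M at the bottom to lists higher at 20M at the top, and 20M_213 lies nearer to the 12M libraries than 20M_221 and 20M_222 in the rows of alveolar type 1 and type 2 cells.

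Lymphocyte genes lay mostly above 0, and none passed the test. T cell genes had 20 of 22 above 0 and a median of 0.34, with 2 higher without overlap (9.09%, near the 7.59% of all tested genes). Without 20M_213 the median was 0.15, and without 20M_221 it was 0.54. Cd8a, the coreceptor of cytotoxic T cells, was at 3.76, 3.2005 and 7.35 CPM at 12M and 13.1, 5.75 and 8.34 at 20M. Lat, the adaptor of T cell receptor signalling, was at 13.2, 10.3 and 11.5 CPM at 12M and 19.6, 14.3 and 16.8 at 20M, and Bcl11b, a transcription factor of T cell identity, at 4.43, 4.13 and 4.81 CPM at 12M and 7.31, 4.88 and 8.12 at 20M, and for both the ages did not overlap. B cell genes had 13 of 17 above 0, a median of 0.23 and none without overlap. Their median was -0.0093 without 12M_207, -0.076 without 20M_221, 0.14 without 20M_213, 0.53 without 12M_206 and 0.48 without 20M_222. It was 0.13 with the GC trend removed and 0.016 with a term for it. The libraries with no GC trend, where 20M_213 is the only one of 20M, gave medians of 0.80 for T cells and 0.32 for B cells.

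Plasma cell genes had a median of 0.41, with 13 of 18 above 0. Of the 18, 2 were higher without overlap (11.1%, beside 7.59% of all tested genes) and 1 lower (5.56%, beside 7.42%). Igha, the constant region of immunoglobulin A, was at 38.6, 31.8 and 48.1 CPM at 12M and 115, 87.01 and 88.4 at 20M, with a log2 fold change of 1.29 ± 0.31. All 3 of its 20M libraries were above those of 12M, and its 30M range was 50.6 to 113 CPM. Irf4, a transcription factor of plasma cells, was at 6.38, 3.28 and 7.52 CPM at 12M and 9.696, 11.002 and 12.9 at 20M. Ighg2c, the constant region of an immunoglobulin G subclass, was at 47.5, 3.71 and 53.3 CPM at 12M and 359.8, 21.6 and 363 at 20M, so that 12M_207 and 20M_221 were low within their ages and the ages overlapped. Without 12M_207 the median of the list was 0.028, without 20M_222 0.089, without 20M_213 0.26 and without 12M_208 0.73. In the libraries with no GC trend it was 0.83.

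No macrophage gene passed the test between these ages. C1qa, C1qb and C1qc, the chains of complement C1q made by tissue macrophages, had log2 fold changes of 0.12 ± 0.21, 0.06 ± 0.19 and 0.04 ± 0.21, and their 95% intervals lay within 2-fold. C1qa was at 42.2, 28.97 and 52.7 CPM at 12M and 44.8, 36.1 and 53.8 at 20M, and at 30M it was at 78.6 to 106 CPM. Interstitial macrophage genes had a median of 0.09, which leaving out 1 library moved from 0.0026 (without 12M_207) to 0.25 (without 20M_221), with 0.22 without 12M_208 and 0.059 without 20M_222. With the GC trend removed it was 0.021, and in the libraries that lack it 0.26. Alveolar macrophage genes had a median of 0.24, which was -0.055 without 12M_208, 0.074 without 20M_213, 0.36 without 12M_206 and 0.40 without 12M_207. It was 0.072 in the libraries with no GC trend and -0.016 with limma voom. Marco, a scavenger receptor of alveolar macrophages, was at 9.99, 9.43 and 6.25 CPM at 12M and 10.3, 22.1 and 10.9 at 20M, and Itgax, the integrin CD11c, at 26.6, 28.3 and 27.6 CPM at 12M and 35.1, 46.1 and 35.7 at 20M. In both the 20M libraries were above those of 12M, and they were the 2 of 16 list members higher without overlap (12.5%, beside 7.59% of all tested genes). A list of Kupffer-like and iron-recycling genes had a median of 0.46, with 6 of 10 above 0 and 4 below. Its log2 fold changes ran from -1.19 (Cd5l) to 5.29. The median was 0.15 without 20M_213, 0.29 without 20M_221 and 0.82 without 12M_206. Siglec1, a sialic acid receptor of macrophages, was at 3.23, 2.695 and 2.53 CPM at 12M and 5.77, 6.13 and 10.1 at 20M, and Slc11a1, an iron transporter of the phagosome, at 12.3, 9.35 and 8.699 CPM at 12M and 13.5, 19.003 and 14.5 at 20M.

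Interferon-stimulated genes were evenly divided, with 18 of 33 above 0 and a median of 0.06. Leaving out 1 library changed its sign in 2 cases, to -0.24 without 20M_213 and to -0.045 without 12M_207. The median was 0.0095 without 12M_208 and 0.17 without 20M_222. It was -0.033 with the GC trend removed, 0.16 with a term for it, 0.46 in the libraries that lack it and -0.09 with limma voom. With the trend removed, the median of all tested genes was lower, at -0.057. Stat2, a transcription factor of the interferon response, was at 41.2, 52.5 and 30.4 CPM at 12M and 62.6, 69.2 and 62.9 at 20M and Oas2, a sensor of double-stranded RNA, at 13.4, 14.5 and 11.3 CPM at 12M and 27.8, 17.2 and 23.8 at 20M. These were the 2 members higher without overlap, or 6.06%, beside 7.59% of all tested genes. Genes of peptide presentation by MHC class I had a median of -0.06, and it ran from -0.16 (20M_213) to 0.031 (20M_222) without 1 library, with -0.096 without 12M_206 and 0.014 without 12M_208. With the GC trend removed it was -0.19, with a term for it -0.021 and in the libraries that lack it 0.096. Nlrc5, the transactivator of these genes, was at 24.03, 35.5 and 16.05 CPM at 12M and 40.9, 40.6 and 35.1 at 20M. Complement genes had 11 of 17 below 0, with a median of -0.14, which was -0.091 without 20M_221, -0.28 without 20M_222 and -0.019 in the libraries with no GC trend. C4b, a component of the classical pathway, was at 854, 713 and 885 CPM at 12M and 770.2, 388 and 524 at 20M, and its 30M range was 580.4 to 1306 CPM.

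Chaperone genes were lower at 20M in their median. Of 17 heat shock genes, 16 lay below 0, with a median of -0.56. Beside cytosolic chaperones, the list holds the mitochondrial Hspd1 and Hspe1 and the transcription factor Hsf1. Hspa8, the constitutive Hsp70, was at 1264, 2796 and 2632 CPM at 12M and 1231, 1057 and 1505 at 20M, and Hspd1, the mitochondrial chaperonin, at 159, 295 and 203.8 CPM at 12M and 152, 131 and 158 at 20M. In both, 12M_207 was highest, and without that library the median of the list was -0.09. Hsf1, the transcription factor of the heat shock response, was at 34.7, 43.6 and 36.7 CPM at 12M and 42.3, 49.3 and 59.96 at 20M. Endoplasmic reticulum stress genes had 21 of 22 below 0 and a median of -0.29, which was -0.18 without 20M_221 and -0.17 in the libraries with no GC trend. Hspa5, the chaperone BiP, was at 614, 1073 and 941 CPM at 12M and 571, 509 and 672 at 20M, and Dnajb9, its cochaperone, at 79.2, 114 and 115 CPM at 12M and 83.5, 50.1 and 59.6 at 20M.

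Cytosolic ribosomal protein genes had 74 of 80 below 0, with a median of -0.33. Of the 80, 5 were lower without overlap (6.25%, near the 7.42% of all tested genes) and 1 higher (1.25%, beside 7.59%). Rps27a, a ribosomal protein made as a fusion with ubiquitin, was at 387, 480.4 and 448 CPM at 12M and 279, 239 and 134 at 20M, and its log2 fold change was -1.01 ± 0.28. Rps13 was at 224, 226 and 263 CPM at 12M and 186, 145 and 158 at 20M. The list median was 0.12 in the libraries that have no GC trend, but -0.42 with the trend removed and -0.28 with a term for it, and -0.53 without 20M_213. Mitochondrially encoded genes had all 12 below 0, none of them without overlap, and a median of -0.36. In the libraries with no GC trend that median was 0.20, with the trend removed -0.38 and with a term for it -0.35. Without 12M_208 it was -0.099, and without 20M_213 -0.56. Of them mt-Co1, a subunit of cytochrome c oxidase, was at 8228, 8838 and 14548 CPM at 12M and 9404, 6650.1 and 7149.9 at 20M, with 12M_208 far above the rest. Nuclear long noncoding RNAs had 6 of 7 above 0 and a median of 0.63, which was 0.33 without 12M_208, 1.04 without 12M_206 and 0.23 in the libraries with no GC trend. Meg3, an imprinted RNA, was at 4.06, 6.74 and 1.69 CPM at 12M and 6.39, 9.56 and 16.2 at 20M, and Neat1, the scaffold of paraspeckles, at 1910.1, 1575 and 349 CPM at 12M and 2124, 2333 and 1493 at 20M, with 12M_208 lowest for both.

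No marker of senescence passed the test in either direction. Cdkn2a, which encodes the cell-cycle inhibitor p16, was at 1.88, 0.926 and 2.03 CPM at 12M and 0.846, 0.625 and 0.886 at 20M, and its log2 fold change was -1.03 ± 0.50, with a 95% interval of -2.12 to 0.05. These are low levels, near 1 CPM. Cdkn1a, which encodes p21, was at 91.9, 271 and 445 CPM at 12M and 147, 127 and 291 at 20M. It varied more within each age than between the ages, and its 95% interval of -1.77 to 0.74 held changes of 2-fold down but not of 2-fold up. The list of senescence and p53 genes had 14 of 21 below 0 and a median of -0.16, which was -0.085 without 20M_221, -0.27 without 20M_222, -0.26 with the GC trend removed and -0.057 in the libraries that lack it. Bbc3, the p53 target Puma, was at 15.8, 19.96 and 17.1 CPM at 12M and 19.7, 26.1 and 28.9 at 20M. Genes of the insulin-like growth factor system had 8 of 9 below 0 and a median of -0.25, which was -0.10 without 20M_221 and -0.41 without 20M_222. Igfbp6, a binding protein with preference for IGF-II, was at 272, 310.3 and 320.3 CPM at 12M and 255, 198 and 243 at 20M.

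Genes that were called between 6 and 30 months were examined at the middle step, in libraries other than those that chose them, though within the same fit. Of 356 genes called higher at 30M against 6M, 243 (68.3%) lay above 0 at 20M against 12M, where 52.5% of all tested genes did. Their median was 0.15, against 0.02 for all tested genes and 1.45 for the same genes at 30M against 6M. The ages did not overlap for 51 of them in the higher direction (14.3%, beside 7.59% of all tested genes) and for 6 in the lower (1.69%, beside 7.42%). By library, their median over the 6M mean was 0.36, 0.27 and 0.37 at 12M, 0.53, 0.52 and 0.34 at 20M and 1.496, 1.48 and 1.42 at 30M. The 6M and 30M libraries took part in choosing the genes, so the 30M values and the common offset from 6M are a description of that choice. The 12M and 20M libraries overlapped in that measure. For 62.1% of the 356 the 95% interval of the fold change at 20M against 12M lay within 2-fold, near the 66.2% of all tested genes.

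Of the 5 genes called lower at 30M against 6M, all 5 lay below 0 at 20M against 12M, and 3 did not overlap (60%, beside 7.42% of all tested genes). Edil3, an integrin ligand of the extracellular matrix, was at 13.7, 17.4 and 22.7 CPM at 12M and 12.1, 10.6 and 10.5 at 20M, and its log2 fold change was -0.70 ± 0.23. Fam162b was at 7.14, 6.57 and 7.601 CPM at 12M and 5.08, 5.06 and 4.87 at 20M. Fibin, a marker of aerocyte capillaries in the list used here, was at 57.2, 45.6 and 88.6 CPM at 12M and 57.2, 49.3 and 41.3 at 20M, and its ages overlapped. Peg3, an imprinted zinc finger gene, was at 11.6, 10.5 and 6.503 CPM at 12M and 8.696, 10.3 and 8.71 at 20M, with a log2 fold change of -0.05 ± 0.24.

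**Figure D4:**
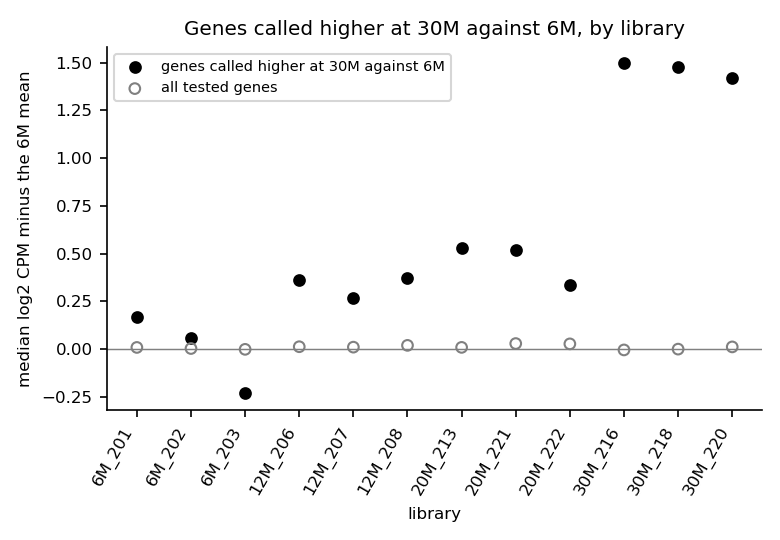
Median log2 CPM minus the 6M mean (y axis) in each of the 12 libraries (x axis) for the 356 genes called higher at 30M against 6M (filled) and for all 18407 tested genes (open). The 12M libraries sit at 0.27 to 0.37, the 20M libraries at 0.34 to 0.53 and the 30M libraries, which chose the genes together with those of 6M, at 1.42 to 1.496.

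The limits of detection set how the absence of called genes can be read. The first gene of the ranking would have needed a p of 2.72e-06 for an adjusted p of 0.05 alone, and the smallest p was 8.82e-05 (edgeR, before Benjamini-Hochberg adjustment). At the standard errors found, the median gene would have needed a log2 change of 1.80, or 3.49-fold. Among 9237 genes of 10 to 100 CPM the median was 2.67-fold, among 2126 genes over 100 CPM 2.54-fold, and among 5648 genes of 1 to 10 CPM 7.54-fold. For the 1396 genes under 1 CPM it was 29.1-fold, so that changes of a few fold were not detectable at that level. These are sizes at which a gene would pass on its own. Where many genes change together, the threshold is less strict.

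The intervals give the other side of the limit. For 12191 genes (66.2%) the 95% interval of the change lay within 2-fold in either direction, and for 5882 (32.0%) within 1.5-fold. The share within 2-fold was 88.0% at 10 to 100 CPM, 90.3% over 100 CPM, 37.7% at 1 to 10 CPM and 0.573% under 1 CPM. The median half-width of the interval was 0.50 on the log2 scale. Of the named genes, C4b had an interval of -1.16 to 0.07, Sftpc one of -1.14 to 0.13 and Scgb1a1 one of -0.92 to 0.22. For Sftpc it reached past 2-fold downwards, and for Scgb1a1 it stayed within 2-fold. For 0 genes were there 0 counts in all libraries of 1 age and at least 1 CPM in every library of the other. Myh4, a fast skeletal muscle myosin, and Dsg3, a desmoglein of squamous epithelium, were at 0 in all 12M libraries and in 20M_213 and 20M_221 and at 77.97 and 20.01 CPM in 20M_222. Of 30355 genes with a count in any of the 6 libraries, 20020 had counts in all 6.

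**Figure D5:**
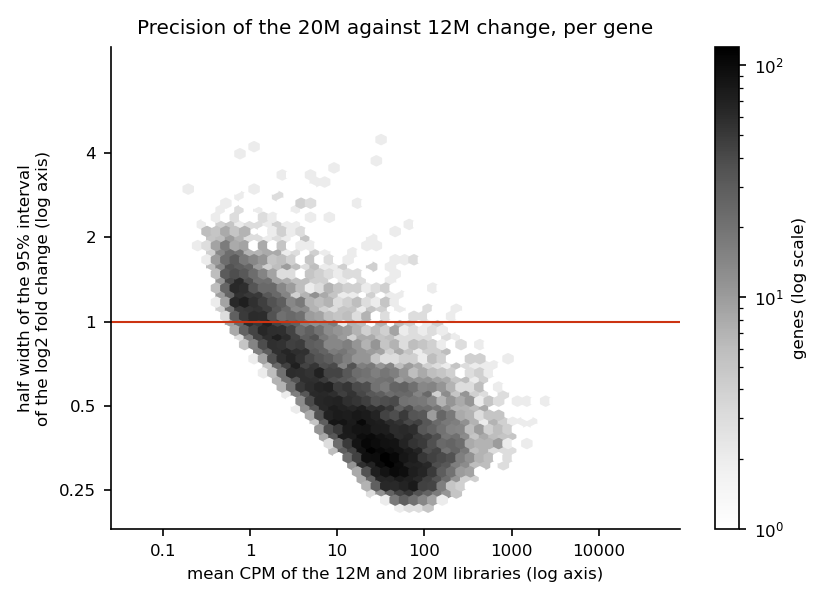
Half-width of the 95% interval of the log2 fold change of 20M against 12M (y axis, log scale) against the mean CPM of the 6 libraries (x axis, log scale), with the number of genes per cell in grey. The line marks a half-width of 1, and genes over 10 CPM lie mostly below it.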

How the data were processed

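Poly-A RNA of whole lung was sequenced as paired-end reads, per the labels' protocols. The authors deposited raw counts of reads for each gene. The submitters' processing notes name HISAT2 2.1.0, featureCounts, Trimmomatic 0.38 and FastQC 0.11.7, and the build GRCm38 (mm10). As the sources used here give neither annotation release nor strand setting, counts of overlapping, antisense and near-identical genes are uncertain.

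The table holds 55487 genes, of which 18407 passed filterByExpr. GC content and length are those of the longest transcript in GENCODE M21 (GRCm38), known for 18382 of them. The test was the quasi-likelihood test in edgeR 4.0.16 under R 4.3.3 (robust, TMM), with all 12 libraries in 1 fit with age as the group, and Benjamini-Hochberg adjustment over all tested genes. A gene is called at an adjusted p under 0.05. The standard error is the log2 fold change divided by the square root of F. The code was tested on simulated counts. Libraries of the same age differed beyond sampling noise, at a chi-square per gene of 6.66 to 49.9.

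Members and lists (66) were chosen with earlier results of these data known, and no set test was run. Lists are described by counts and medians, and up to 4 members with the smallest p are named. Alas2, Foxj1, Cd5l, Krt4, Krt13, Myh4 and Dsg3 were chosen after their values were seen. Some members of these lists are counted but not reported here by name. The rule named called genes. As none was called, the 10 genes of smallest p in each direction that reach 1 CPM on average at the higher age are named, predicted genes aside. Alternatives were DESeq2 1.42.0, limma 3.58.1 voom, other scaling and filters, GC corrections and leaving out each library.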

Additional observations from a re-analysis of the deposited data

How the results depend on the processing

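The count of called genes was 0 in every edgeR and limma alternative and 9 (7 higher, 2 lower, 7 over 2-fold) with DESeq2, whose adjusted p-values were as low as 0.0108. Leaving out each library in turn, edgeR called 0 genes in every case, and DESeq2 fits of the same kind, added after seeing the data, called 0 to 733, with 0 to 363 higher, 0 to 370 lower and 0 to 292 over 2-fold. Without 20M_213 DESeq2 called 733. That fit kept 20M_221 and 20M_222, which have a GC trend. Its calls included Actn3 of the skeletal muscle list, with a log2 fold change of 5.50. Without 12M_206 DESeq2 called 60, with 40 higher and 44 over 2-fold. Without 20M_221, where 20M_222 was kept, it called 43, with 40 higher, 3 lower and 42 over 2-fold. Without 12M_207 it called 0, and 1 each without 12M_208 and 20M_222. The part of the skeletal muscle and squamous transcripts of 20M_222 in these counts was not tested. Without 20M_213 edgeR had 3801 genes at an unadjusted p under 0.05, and without 20M_221 or 20M_222 it had 1021 and 1051. Of the genes at an unadjusted p under 0.05, 59.8% were higher in the edgeR test as reported, 49.6% with limma voom, 35.1% with the GC trend of each library removed, 51.6% with a term for it, and 48.1% to 73.2% without 1 library. The 20 genes of smallest p kept their direction in all 339 alternative values, and their adjusted p with edgeR or limma ran from 0.0519 to 1. Of 116 genes followed, 93 kept their direction in all 17 alternatives. With limma voom, the log2 fold changes were C1qb -0.098, Krt5 -1.69, Krt14 -0.53 and Trp63 -0.25. With each library's GC trend removed, the log2 fold changes were Ddx3y 0.0054, Eif2s3y 0.11, C1qa -0.11, C1qb -0.14, C1qc -0.17 and Foxj1 -0.13. The median of all tested genes in that setting was -0.057. With a term for the libraries with a GC trend, the log2 fold changes were Xist 0.0021, Ddx3y 0.060, Eif2s3y 0.27 and Foxj1 -0.011. With only libraries that have no GC trend, the log2 fold changes were Acta1 -1.48, Xist 0.073, Eif2s3y 0.061, Sftpc 0.080, Scgb1a1 0.11, Fibin 0.16, Napsa 0.11, mt-Atp6 0.20, mt-Co1 0.15, Krt5 -0.50, Trp63 -0.36, Cd59a 0.049, Cfap126 0.011 and Foxj1 -0.084. Without 1 library at a time the ranges were Xist -0.41 to 0.092, Ddx3y -0.30 to 0.030, Eif2s3y -0.38 to 0.27, Peg3 -0.27 to 0.11, C1qa -0.084 to 0.33, C1qc -0.11 to 0.19, Cdkn1a -0.98 to 0.045, Kdm5d -0.067 to 0.45, Pecam1 -0.48 to 0.058, C1qb -0.080 to 0.25, Acta1 -1.02 to 11.92, Krt5 -1.62 to 6.21, Krt14 -0.83 to 5.12, Foxj1 -0.060 to 0.32 and Trp63 -0.80 to 2.52. Beside the medians in the report, those of lists that limma voom moved by over 1.5 times were 0.20 for T cells, 0.36 for B cells, 0.32 for collagens, -0.46 for insulin-like growth factor genes, 1.43 for skeletal muscle, -0.28 for senescence genes and -0.28 for complement. In each case the cause was not tested. No paired analysis was possible because the ages share no replicate number. Intervals were widest for genes under 1 CPM, of which 0.573% had one within 2-fold. The parts of depth and of spread between libraries in that width were not separated.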
